A study of Mus musculus with 9 samples.

Results

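The Zfp36 and Regnase genes encode proteins that bind messenger RNA (mRNA) and set how long it lasts. The 7 genes described here were chosen by name from the 54532 genes of the expression table: Zfp36, Zfp36l1, Zfp36l2, Zc3h12a, Zc3h12c, Rc3h1 and Elavl1. RNA-seq of RAW264.7 gave their mRNA levels. RAW264.7 is a mouse macrophage line, whose labels name macrophage as the cell type, ascites as the source and WT as the genotype. Each of 3 groups had 3 libraries. The control group was untreated, the LPS group received lipopolysaccharide (LPS, from the outer membrane of bacteria) at 1 μg/ml for 6 h, and the LPS + G-CDs group received the same dose of LPS plus 400 μg/ml of G-CDs for the same time. G-CDs are carbon dots, nanometre-sized carbon particles, prepared from Glycyrrhiza (licorice). The titles of the third group name G-CDs while its treatment label gives LPS alone, so that the dose of G-CDs comes from the description of the design. No group received G-CDs without LPS, and all libraries came from 1 cell line. Neither the labels nor the methods say that the libraries of a group came from separate cultures, so the p-values measure the spread between these libraries, which may be technical.

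Levels are given in FPKM, the number of sequenced fragments scaled to gene length and library size, so that levels of different genes can be set side by side. Depth was similar in all groups, with 14752400 to 17312255 reads on genes in a library. All 7 genes had at least 1 FPKM in all 9 libraries, and the reads behind a value ran from 61 for Zfp36l1 to 10782 for Zfp36. Of 9 macrophage markers, 8 were at 1 FPKM or more in every library and 1, Mertk, was listed at 0 in all of them. None of 19 markers of T cells, B cells, neutrophils, fibroblasts, epithelium and endothelium was at 1 FPKM in every library. Their summed level was 0.803 to 3.24 FPKM against 2654 to 5333 FPKM for the macrophage markers. Neutrophil markers reached at most 2.15 FPKM with LPS + G-CDs, 0.730 FPKM with LPS and 0.430 FPKM in control cells.

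Zfp36 (tristetraprolin) and its relatives Zfp36l1 and Zfp36l2 bind AU-rich elements in the 3′ untranslated region (3′ UTR) of mRNAs for cytokines such as Tnf, and recruit the CCR4-NOT complex, which removes the poly(A) tail. Zc3h12a (Regnase-1) is an endonuclease that cuts mRNAs such as Il6 within stem-loops of the 3′ UTR, Zc3h12c (Regnase-3) is its relative, and Rc3h1 (Roquin-1) binds similar stem-loops and also recruits CCR4-NOT. Elavl1 (HuR) binds U-rich and AU-rich elements too but is best known for stabilizing the mRNA. In macrophages these proteins limit or prolong the cytokine mRNAs that LPS induces, and several of the regulators are themselves induced by LPS.

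The table places the genes, in GRCm38, as follows. On the minus strand lie Zfp36 (ENSMUSG00000044786) at chr7:28376784-28380253, Zfp36l1 (ENSMUSG00000021127) at chr12:80107754-80113013, Zfp36l2 (ENSMUSG00000045817) at chr17:84183931-84187947, Zc3h12a (ENSMUSG00000042677) at chr4:125118423-125127840, Zc3h12c (ENSMUSG00000035164) at chr9:52111344-52168572 and Elavl1 (ENSMUSG00000040028) at chr8:4285382-4325413, and on the plus strand lies Rc3h1 (ENSMUSG00000040423) at chr1:160906418-160974978.

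The sequences that the Zfp36 family recognizes are shown because several regulators carry them in their own mRNA. The core is the heptamer UAUUUAU, written TATTTAT in DNA, which was searched on the sense strand of the 3′ UTR with overlapping matches counted. At least 1 heptamer was present in 28.3% of the 3′ UTRs of 9440 tested genes. Zfp36 had 3 heptamers within a 3′ UTR of 774 bases, and 0.972% of 1132 tested genes with a 3′ UTR of similar length had as many. Zfp36l1 had 3 in 1835 bases and Zfp36l2 had 3 in 1822 bases, counts that 3.17% and 3.24% of 3′ UTRs of similar length reached. The 3′ UTR of Elavl1 held 8 heptamers in 4218 bases, all of them 3795 to 3841 bases after the stop codon, as many as in 0.154% of 3′ UTRs of similar length. Zc3h12c held 2 in 4062 bases and Rc3h1 held 2 in 7181 bases, which 26.9% and 44.4% of similar 3′ UTRs matched or passed. Zc3h12a had no heptamer in 856 bases, and 22.1% of similar 3′ UTRs held at least 1. The windows of 27 bases below were read from GENCODE transcripts and coordinates of GRCm38, with every complete heptamer in capitals, and the Tnf window is set beside them as a textbook target of Zfp36, chosen after its values were seen.
Zfp36 site 1, chr7:28376967-28376993, minus strand: gtgggcccttTATTTATgacgacttta
Zfp36 site 2, chr7:28376952-28376978, minus strand: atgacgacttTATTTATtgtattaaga
Zfp36 site 3, chr7:28376927-28376953, minus strand: gattttatagTATTTATatatattggg
Zfp36l1 site 1, chr12:80108423-80108449, minus strand: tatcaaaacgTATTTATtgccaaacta
Zfp36l2 site 1, chr17:84184915-84184941, minus strand: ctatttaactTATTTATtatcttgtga
Zc3h12c site 1, chr9:52114863-52114889, minus strand: ctataatcatTATTTATaggaacaaag
Rc3h1 site 1, chr1:160970044-160970070, plus strand: ctttactcatTATTTATtgagatgagg
Elavl1 site 2, chr8:4285785-4285811, minus strand: gaaaatTATTTATTTATTTATTTATtt
Tnf site 4, chr17:35199679-35199705, minus strand: atttatTATTTATTTATTATTTATtta
The central heptamers of the 3 windows of Zfp36 begin 575, 590 and 615 bases after its stop codon. The Elavl1 window shows 4 of its heptamers in a single run, each sharing bases with the next, and the Tnf window shows a similar run. Tnf held 8 heptamers, and the other target mRNAs searched held 7 (Cxcl2), 6 (Ptgs2), 1 (Il6) and 0 (Nfkbiz). The letters describe the sequence and say nothing of whether a protein was bound in these cells.

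The promoter of Zfp36 is shown because Zfp36 had the largest rise of the 7 genes with LPS. The RefSeq window in GRCm38.p6, at chr7:28379179-28379478 on the minus strand, runs from 250 bases before to 50 bases after the RefSeq start. It lies wholly inside the gene span given above, which begins on this strand at 28380253, so the starts of the 2 sources differ. The capitals mark a match to the CArG box, the site of serum response factor, 58 bases before the RefSeq start.
Zfp36 promoter: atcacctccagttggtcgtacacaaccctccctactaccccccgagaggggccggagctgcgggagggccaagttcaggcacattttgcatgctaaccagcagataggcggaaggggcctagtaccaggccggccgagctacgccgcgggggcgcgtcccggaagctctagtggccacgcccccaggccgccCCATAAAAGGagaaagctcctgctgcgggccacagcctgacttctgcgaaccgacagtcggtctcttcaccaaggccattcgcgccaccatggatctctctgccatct
A CArG box on either strand was present in 1.57% of 27025 promoter windows of this length. Among the windows of the other regulators, the AP-1 motif TGANTCA, read the same way on both strands, was present 129 bases before the start of Zfp36l1 and 133 bases before that of Rc3h1, against 7.93% of all windows. No window of a regulator held the NF-κB consensus, which was present in 4.35% of all windows, and this says only that these letters were not in these 300 bases. Windows were found for 6 of the 7 genes, all but Zfp36l2.

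The first comparison asked what 6 h of LPS did to the regulators. With LPS, 5 of the 7 genes were higher than in control cells at an adjusted p under 0.05 and 1 was lower. Among all 11585 genes tested, 15.8% were higher and 15.6% were lower by the same rule (1827 and 1803 genes). With each library rescaled to the same sum of FPKM (TPM), 1015 were higher and 3106 lower. The median log2 fold change was 1.26 over the 7 genes and 0.02 over all tested genes. In bulk RNA from a culture, fewer cells that express a gene and less RNA per cell cannot be told apart.

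**Figure D1:**
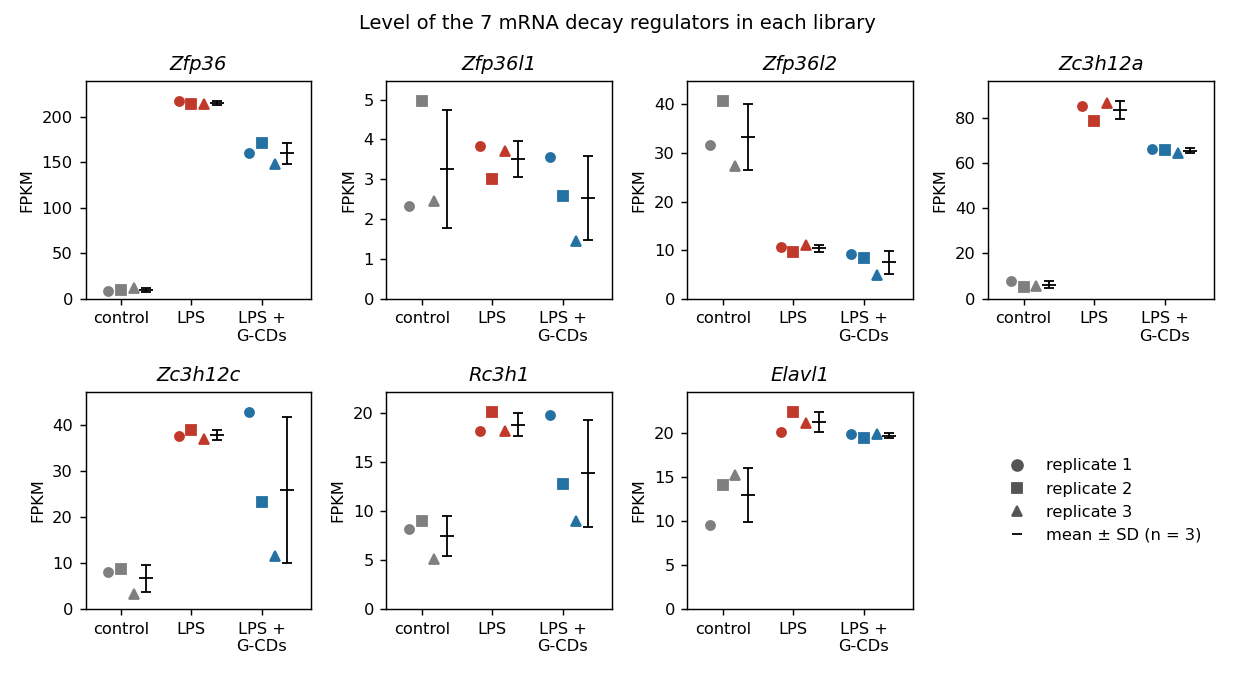
Level of each regulator in FPKM on linear axes that start at 0, for control, LPS and LPS + G-CDs, with 1 point per library and the mean ± SD of 3 libraries in black. Zfp36 sits between 7.97 and 11.7 FPKM in control cells and between 214 and 218 FPKM with LPS, while Zc3h12c and Rc3h1 spread widely in the LPS + G-CDs group.

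Zfp36 was measured at 7.97, 9.46 and 11.7 FPKM in the control libraries, 218, 214 and 214 FPKM with LPS, and 160, 171 and 148 FPKM with LPS + G-CDs. The 3 groups did not overlap, with LPS highest and control lowest. The mean was 9.71 ± 1.88 FPKM in control cells and 215 ± 2.21 FPKM with LPS (SD, n = 3), and the log2 fold change was 4.35 (SE 0.15) with an adjusted p of 8.7e-08 by limma. An antisense transcript, Gm44710, overlaps 1274 bases of the gene and was listed at 1.23 FPKM or less.

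Zfp36l2 moved the other way. Its level was 31.7, 40.7 and 27.4 FPKM in control cells and 10.6, 9.54 and 11.0 FPKM with LPS, so that every LPS library was below every control library. The mean was 33.3 ± 6.80 FPKM in control cells and 10.4 ± 0.740 FPKM with LPS (SD, n = 3), and the fall was -1.57 on the log2 scale (SE 0.22, limma adjusted p = 0.00078).

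Zfp36l1 was the member with the lowest level in every group. It was measured at 2.34, 4.97 and 2.46 FPKM in control cells and at 3.85, 3.0 and 3.70 FPKM with LPS, with overlapping groups. The log2 fold change of 0.14 (SE 0.28) had a limma adjusted p of 0.74 and a 95% interval from -0.49 to 0.76. A transcript on the opposite strand, Gm26669, overlaps 4967 bases of Zfp36l1 and was listed at 0.118 FPKM or less. Of the 50-base words of the Zfp36l1 transcript, read on both strands, 56.9% also occurred in transcripts of other genes (3.26% outside Gm26669), against 0 to 2.72% for the other members, so its level is uncertain where such reads were split or dropped. Whether reads were counted by strand is not given in the sources used here, so reads of such overlapping genes cannot be told apart.

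The make-up of the family differed between the groups. Of the summed FPKM of Zfp36, Zfp36l1 and Zfp36l2, Zfp36l2 made up 71.7% ± 5.09 in control cells and 4.53% ± 0.295 with LPS (SD, n = 3). Zfp36 made up 21.4% ± 5.89 in control cells and 93.9% ± 0.464 with LPS. The summed level of the 3 genes was 46.2 ± 7.73 FPKM in control cells and 229 ± 2.88 FPKM with LPS.

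**Figure D2:**
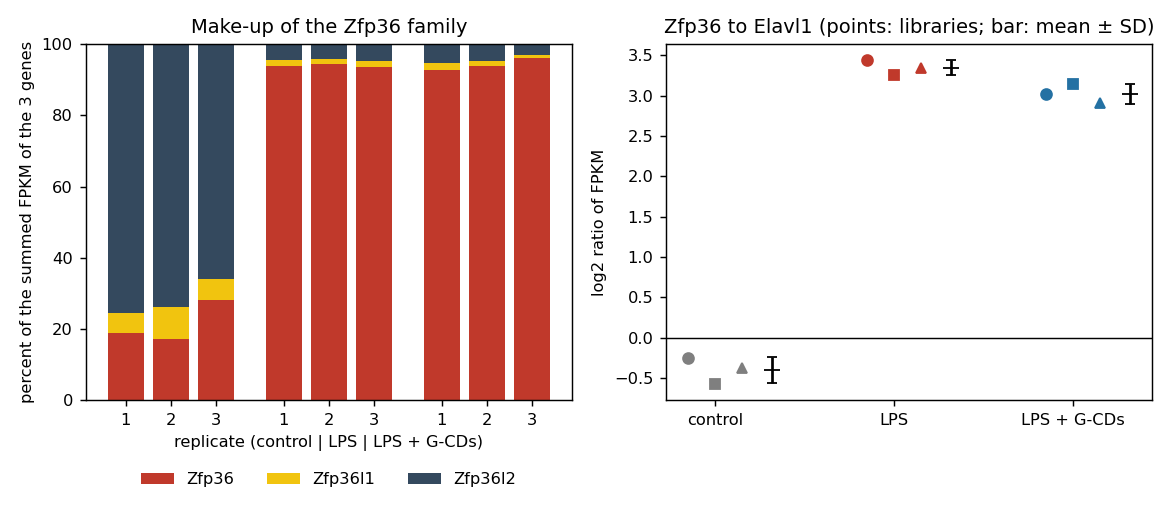
Left, percent of the summed FPKM of the 3 Zfp36 family genes in each library (stacked bars, replicates 1 to 3 of control, LPS and LPS + G-CDs); right, log2 ratio of the FPKM of Zfp36 to that of Elavl1, with 1 point per library and the mean ± SD of 3 libraries. Zfp36l2 fills most of the bars of control cells and Zfp36 most of those of both treated groups, and the ratio lies below 0 only in control cells.

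Among the Regnases, Zc3h12a was at 7.83, 5.18 and 5.51 FPKM in control cells and at 85.0, 78.7 and 86.4 FPKM with LPS. Its groups did not overlap, and the log2 fold change was 3.57 (SE 0.15, limma adjusted p = 3.3e-07). Zc3h12c was at 8.07, 8.80 and 3.30 FPKM in control cells and at 37.4, 38.9 and 36.8 FPKM with LPS. It rose by a log2 fold change of 2.42 (SE 0.44, limma adjusted p = 0.0032), and control replicate 3 was the lowest library. In control cells the levels of both Regnases overlapped, with a ratio of Zc3h12a to Zc3h12c of 1.08 ± 0.550. With LPS this ratio was 2.21 ± 0.170 (SD, n = 3). With LPS + G-CDs it was 1.55, 2.83 and 5.56 in replicates 1, 2 and 3, a range that held the values of LPS.

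Rc3h1 had 8.18, 8.98 and 5.11 FPKM in control cells and 18.2, 20.1 and 18.1 FPKM with LPS, without overlap. Its log2 fold change of 1.26 (SE 0.27) had a limma adjusted p of 0.0072. TPM ended this call, with a log2 fold change of 1.02 and an adjusted p of 0.055, while the median of all tested genes moved to -0.21.

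Elavl1 had the smallest of the called rises. Its level was 9.49, 14.1 and 15.2 FPKM in control cells and 20.1, 22.4 and 21.1 FPKM with LPS, without overlap, and the log2 fold change was 0.69 (SE 0.16, limma adjusted p = 0.011). This call was lost with TPM (log2 fold change 0.44, adjusted p = 0.094) and when a trend with gene length was removed over all libraries, an alternative added after seeing the data (log2 fold change 0.58, adjusted p = 0.083). Ccl25 overlaps 204 bases of Elavl1 on the opposite strand and was at 1.00 to 1.54 FPKM. Set against Elavl1, which binds overlapping elements, Zfp36 was at a ratio of 0.759 ± 0.0854 in FPKM in control cells and 10.2 ± 0.642 with LPS (SD, n = 3).

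The order of the levels in FPKM changed accordingly. In control cells Zfp36l2 was highest and apart from the rest, Zfp36l1 was lowest, and between them the neighbours Elavl1, Zfp36, Rc3h1, Zc3h12c and Zc3h12a overlapped in turn. With LPS the order was Zfp36, Zc3h12a, Zc3h12c, Elavl1, Rc3h1, Zfp36l2 and Zfp36l1, and only Elavl1 and Rc3h1 overlapped. With LPS + G-CDs Zfp36 and Zc3h12a were again highest and Zfp36l1 lowest, while Zc3h12c, Elavl1, Rc3h1 and Zfp36l2 overlapped in turn and Zfp36l2 lay apart from Zfp36l1.

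The comparison of LPS + G-CDs with LPS asked what G-CDs changed in LPS-treated cells. None of the 7 genes passed an adjusted p under 0.05 by limma, nor a p under 0.01 with a change over 1.5-fold, the study's rule for differential expression. By these rules 0.492% and 2.49% of all tested genes were called. Limma's voom on the recovered reads also called 0 of the 7. At an unadjusted p under 0.05, 2 of the 7 genes were lower, Zfp36 and Zc3h12a, against 8.04% of all tested genes. All 7 estimates were below 0, with a median log2 fold change of -0.43, where 48.0% of all tested genes were below 0 and their median was 0.02. The sign of all 7 was the same under TPM, median-of-ratios scaling and voom, and that of Elavl1 turned to 0.16 when the gene-length trend was removed over all libraries, an alternative added after seeing the data. For 4 of the 7 genes, Zfp36, Zfp36l2, Zc3h12a and Elavl1, each LPS + G-CDs library was below each LPS library, which held for 15% of all tested genes.

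**Figure D3:**
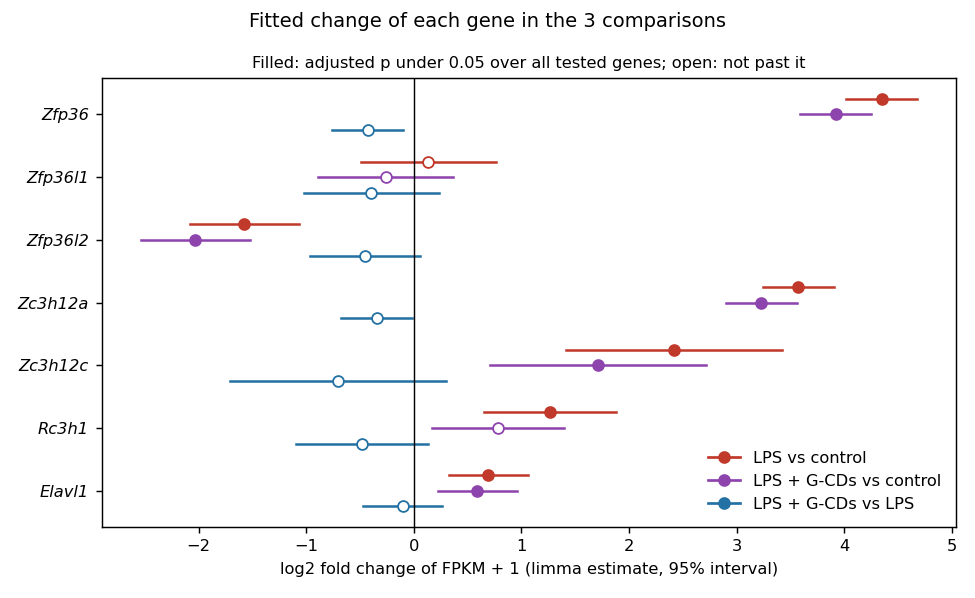
Fitted log2 fold change of FPKM + 1 of each regulator with its 95% interval from limma, for LPS against control (red), LPS + G-CDs against control (purple) and LPS + G-CDs against LPS (blue); filled points have an adjusted p under 0.05 over all tested genes. The blue points all lie below 0 and are all open, with Zc3h12c at -0.71 and Elavl1 at -0.10 as the ends of their range.

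Zfp36 was at 74.3% of its LPS level with LPS + G-CDs, 160 ± 11.5 FPKM against 215 ± 2.21 FPKM. The log2 fold change was -0.43 (SE 0.15, 95% interval -0.76 to -0.10), with an unadjusted p of 0.016 and an adjusted p of 0.28 by limma. Zc3h12a was at 66.3, 65.8 and 64.3 FPKM with LPS + G-CDs, 78.5% of its LPS level, with a log2 fold change of -0.34 (SE 0.15, 95% interval -0.67 to -0.01, limma adjusted p = 0.32). The levels of both genes were below those of LPS in 3 of 3 libraries, and neither passed the correction.

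Zfp36l2 was at 9.29, 8.46 and 4.84 FPKM with LPS + G-CDs, and its log2 fold change against LPS was -0.46 (SE 0.22, limma adjusted p = 0.33). Zfp36 made up 94.1% ± 1.69 of the family with LPS + G-CDs against 93.9% ± 0.464 with LPS, values that overlapped, while the summed level of the family was 170 ± 14.0 FPKM against 229 ± 2.88 FPKM. The ratio of Zfp36 to Elavl1 was 8.14 ± 0.694 with LPS + G-CDs and 10.2 ± 0.642 with LPS (SD, n = 3), without overlap. Elavl1 itself was at 19.8, 19.3 and 19.9 FPKM with LPS + G-CDs, 92.7% of its LPS level, and its log2 fold change of -0.10 (SE 0.16) had a 95% interval from -0.47 to 0.27.

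For the other members the libraries of the LPS + G-CDs group stood apart from each other. Zc3h12c was at 42.8, 23.3 and 11.6 FPKM, Rc3h1 at 19.7, 12.7 and 8.98 FPKM and Zfp36l1 at 3.56, 2.58 and 1.45 FPKM. In each of these genes replicate 1 was highest and replicate 3 lowest. Replicate 1 lay above all LPS libraries for Zc3h12c and within their range for Rc3h1 and Zfp36l1. The fitted log2 fold changes against LPS were -0.71 (SE 0.44) for Zc3h12c, -0.48 (SE 0.27) for Rc3h1 and -0.40 (SE 0.28) for Zfp36l1, with limma adjusted p-values of 0.38, 0.36 and 0.41. Without replicate 1 of LPS + G-CDs the values were -1.15 for Zc3h12c (adjusted p = 0.08), -0.75 for Rc3h1 (adjusted p = 0.07), -0.60 for Zfp36l1 (adjusted p = 0.15) and -0.61 for Zfp36l2 (adjusted p = 0.099). Without replicate 3 the values were -0.25 for Zc3h12c (adjusted p = 0.89), -0.23 for Rc3h1 (adjusted p = 0.86), -0.16 for Zfp36l1 and -0.20 for Zfp36l2, and in neither case was any of the 7 called.

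The spread between the LPS + G-CDs libraries differed widely among the members. The SD on the log2(FPKM + 1) scale was 0.90 for Zc3h12c, above 98.1% of tested genes in that group, and 0.53 for Rc3h1, above 85.3%. It was 0.02 for both Zc3h12a and Elavl1, above 1.04% and 0.88% of tested genes, and 0.10 for Zfp36. The median SD of all tested genes was 0.259 with LPS + G-CDs, 0.244 in control cells and 0.087 with LPS. Part of this spread ran with gene length across all genes, and the fitted trend in replicates 1 and 3 of LPS + G-CDs was 0.31 and -0.29 at the length of Rc3h1 (11308 bases) and 0.28 and -0.27 at that of Elavl1 (10363 bases). The measured deviations from the group mean were 0.55 and -0.51 for Rc3h1 but 0.01 and 0.01 for Elavl1. For Zc3h12c (6845 bases) the trend was 0.15 and -0.14 and the deviations were 0.89 and -0.92. With the length trend removed over all libraries, an alternative added after seeing the data, the log2 fold change of Rc3h1 against LPS was -0.19 (adjusted p = 0.45) in place of -0.48.

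**Figure D4:**
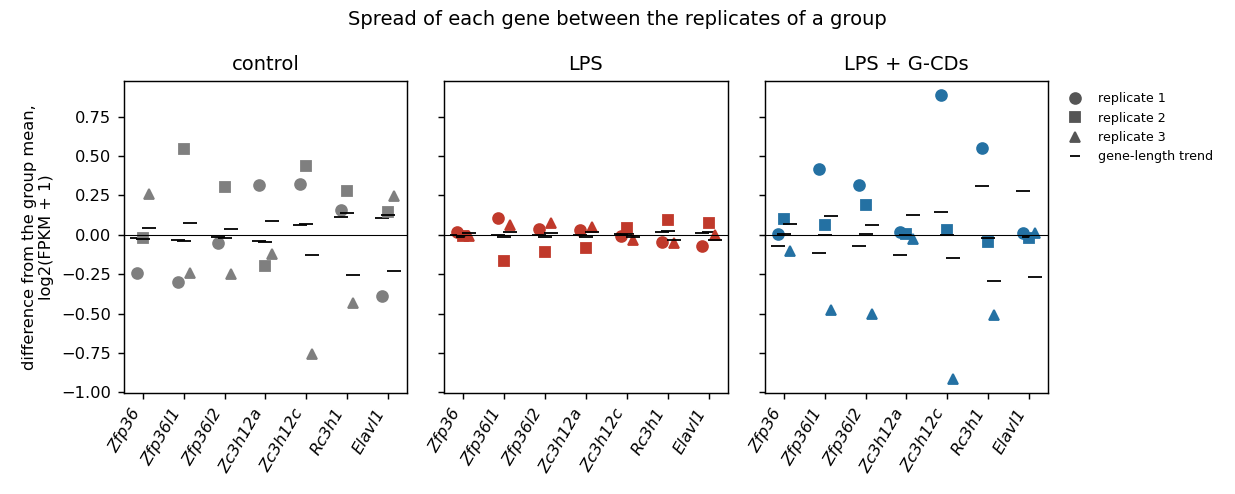
Difference of each library from its group mean on the log2(FPKM + 1) scale for the 7 regulators, in control, LPS and LPS + G-CDs (symbols for replicates 1 to 3); short black bars give the trend with gene length fitted over all tested genes at that gene's length. The LPS libraries lie close to 0 for every gene, while Zc3h12c reaches 0.89 and -0.92 in the LPS + G-CDs group.

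The comparison of LPS + G-CDs with control asked which LPS responses were present when G-CDs were added. It shares its libraries with the other comparisons, so its values are given side by side with theirs and not as separate evidence. Of the 7 genes, 4 were higher and 1 was lower than in control cells, against 12.8% higher and 12.4% lower among all tested genes (1488 and 1439), which became 755 higher and 3255 lower with TPM. Zfp36 had a log2 fold change of 3.92 (limma adjusted p = 2.2e-07) and Zc3h12a of 3.23 (adjusted p = 6.3e-07). For Zfp36l2 the value was -2.03 (adjusted p = 0.00021).
Zc3h12c had a log2 fold change of 1.71 (SE 0.44, limma adjusted p = 0.021), which passed neither without control replicate 3 (1.33, adjusted p = 0.054) nor without replicate 2 of LPS + G-CDs (1.69, adjusted p = 0.066). The call of Zc3h12c held in 12 of the 17 alternatives run, and was also lost with TPM (1.32, adjusted p = 0.087), with no filter (adjusted p = 0.059) and with the 6 libraries alone (adjusted p = 0.066). Elavl1 had a log2 fold change of 0.59 (SE 0.16, limma adjusted p = 0.027), and this call was lost without replicate 2 (0.60, adjusted p = 0.079) or replicate 3 (0.59, adjusted p = 0.053) of LPS + G-CDs. With TPM the value for Elavl1 was 0.18 (adjusted p = 0.48), and the call held in 11 of the 17 alternatives run. Rc3h1 did not pass, at 0.78 (SE 0.27, limma adjusted p = 0.065), but did without replicate 3 of LPS + G-CDs (1.04, adjusted p = 0.017), with the replicate number as a block (adjusted p = 0.026), and after removal of the gene-length trend within groups (adjusted p = 0.0022) or over all libraries (0.94, adjusted p = 0.0008). Zfp36l1 had a log2 fold change of -0.26 (SE 0.28, limma adjusted p = 0.54).

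Expressed on the FPKM scale, the part of the LPS rise that was present with LPS + G-CDs was 73.1% for Zfp36, 76.8% for Zc3h12a, 61.8% for Zc3h12c, 56.4% for Rc3h1 and 81.3% for Elavl1. These shares compare group means and carry the spread of the LPS + G-CDs libraries, which was wide for Zc3h12c and Rc3h1.

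The genes that act with or on the 7 regulators were taken as lists, chosen with earlier results of these data known. Of the 7 further members of the same families, 1 was tested, Rc3h2 (Roquin-2), and it was higher with LPS at a log2 fold change of 0.86 (SE 0.23, limma adjusted p = 0.02). Of 17 other RNA-binding regulators of mRNA decay, Arid5a entered the test only through the treated groups, so that it had to be higher there. Of the other 16, 4 were higher and 0 were lower, beside 15.8% and 15.6% of all tested genes. The largest rises were those of Igf2bp2, an mRNA-stabilizing protein (2.68, adjusted p = 1.4e-05), Cpeb4, a cytoplasmic polyadenylation factor (1.54, adjusted p = 0.0029), and Zc3hav1, an antiviral zinc finger protein (1.04, adjusted p = 0.006). The median of these 16 genes was 0.37, against 0.02 over all tested genes.

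The enzymes that carry out decay were taken in 3 lists. Of 19 genes of CCR4-NOT and other deadenylation, 4 were higher and 2 were lower with LPS, beside 15.8% and 15.6% of all tested genes, and the largest changes were in Btg2 (1.13, adjusted p = 0.00014), Btg1 (1.00, adjusted p = 0.0023) and Tob2 (0.94, adjusted p = 0.012), adaptors that bring deadenylases to mRNA. The other called genes, named after their values were seen, were Cnot7, a catalytic subunit of CCR4-NOT, which was higher (0.79, adjusted p = 0.0029), and the adaptor Tob1 (-0.61, adjusted p = 0.027) and the deadenylase Parn (-0.37, adjusted p = 0.023), which were lower. Of 17 decapping and 5′ decay genes, 2 were higher, the exonuclease Xrn1 (0.80, adjusted p = 0.04) and the decapping enzyme Dcp2 (0.68, adjusted p = 0.045). Of 17 tested genes of the exosome and Upf1 list, Exosc10 was higher (0.48, adjusted p = 0.033) and Exosc7 lower (-0.66, adjusted p = 0.047). The counts of the decapping and exosome lists stand beside the same 15.8% and 15.6%. The medians of these 3 lists were 0.20, 0.05 and -0.14.

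Among 16 tested genes for enzymes and adaptors that act on the regulators, 6 were higher and 1 was lower with LPS, where 15.8% and 15.6% of all tested genes were. Malt1, the protease that cleaves Regnase-1 and Roquin, rose by a log2 fold change of 3.10 (SE 0.24, limma adjusted p = 1.9e-05), from 4.07, 4.03 and 2.81 FPKM in control cells to 40.2, 38.2 and 37.0 FPKM with LPS. Mapkapk2, the kinase that phosphorylates Zfp36, rose by 1.39 (SE 0.14, adjusted p = 0.00012), and Mapk14 (p38α), the kinase upstream of it, was lower, at -1.04 (SE 0.11, adjusted p = 0.0001). With LPS + G-CDs Malt1 was at 21.6, 13.9 and 9.92 FPKM, below every LPS library, with a log2 fold change of -1.35 against LPS (SE 0.24) that did not pass at a limma adjusted p of 0.066.

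The mRNAs known as targets of these proteins were taken as 2 lists, which share Tnf, Il6, Nfkbiz, Ptgs2, Ier3 and Cxcl1. Of 17 listed targets of the Zfp36 family, 15 were tested. Of these, 8 (Ccl2, Csf2, Csf3, Cxcl2, Il1a, Il1b, Il23a and Il6) were under 1 FPKM in every control library and entered the test only through the treated groups, so that they had to be higher there. Of the other 7, which include Zfp36 itself, 6 were higher with LPS, beside 15.8% higher and 15.6% lower of all tested genes, and their median log2 fold change was 5.25. Of 16 listed targets of Regnase-1 and Roquin, 11 were tested, and Il6 and Lcn2 entered only through the treated groups. The other 9, which include Zc3h12a, were higher, with a median of 3.57. Il6 and Csf2 had no read in any control library. By a floor of 3 reads per control library Il6 was at least 267-fold higher with LPS and Csf2 at least 690.1-fold higher. Csf3, a granulocyte growth factor, was at 0.107 FPKM in control cells (mean, with 0 to 7 reads per library) and 1374 FPKM with LPS. Cxcl2, a neutrophil chemokine, was at 0.739 and 1217 FPKM, and Ptgs2, the inducible cyclooxygenase, at 2.11 and 1461 FPKM. Tnf was at 34.0, 58.9 and 67.1 FPKM in control cells and at 2539, 2449 and 2549 FPKM with LPS, a log2 fold change of 5.59 (SE 0.24, limma adjusted p = 5.2e-07). Nfkbiz, a nuclear IκB protein, had a log2 fold change of 5.25 (SE 0.17, adjusted p = 7.6e-08).

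**Figure D5:**
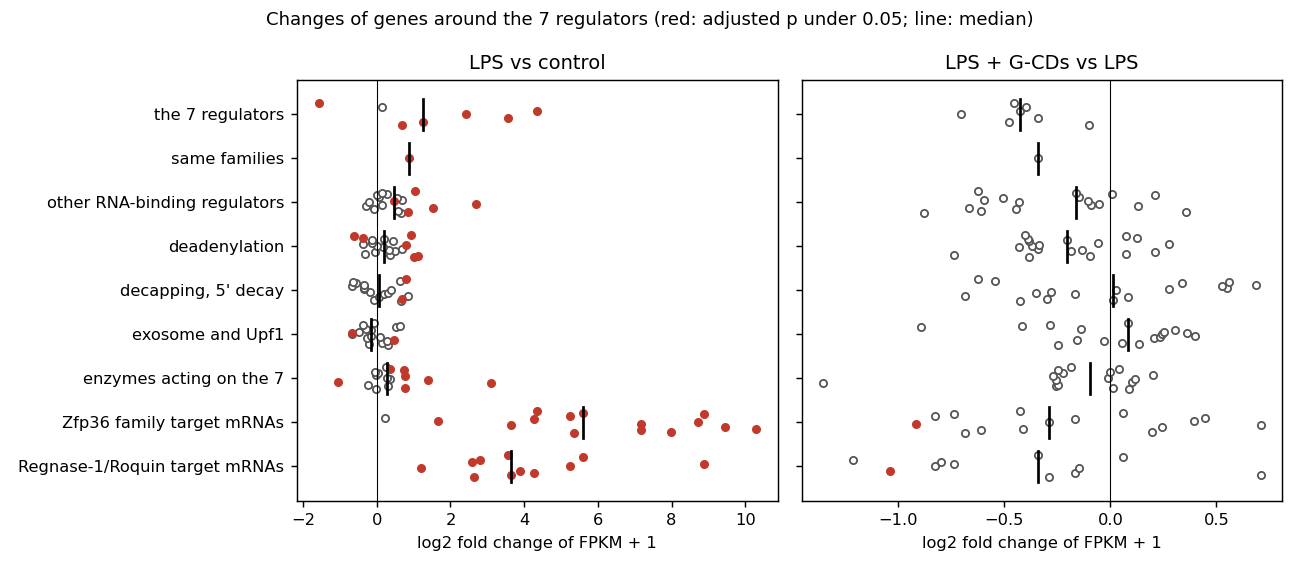
Log2 fold change of FPKM + 1 for the 7 regulators and for the tested genes of each list, for LPS against control (left) and LPS + G-CDs against LPS (right, on a narrower scale), with 1 point per gene, red where the limma adjusted p is under 0.05 and a line at the median. With LPS the medians of the target mRNAs are 5.59 and 3.63, over lists in which 8 and 2 genes were tested only because they were high in treated cells, and on the right only Il1a and Lcn2 are red.

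With LPS + G-CDs against LPS, 1 gene of each target list was lower and none was higher, beside 0.492% of all tested genes called either way. Il1a, a cytokine of the interleukin-1 family, was at 146, 159 and 138 FPKM with LPS and 89.7, 76.7 and 68.2 FPKM with LPS + G-CDs, a log2 fold change of -0.91 (SE 0.13, limma adjusted p = 0.023). Lcn2, an iron-binding acute-phase protein, was at 15.7, 15.6 and 14.7 FPKM and at 6.14, 6.17 and 8.85 FPKM, a log2 fold change of -1.04 (SE 0.14, limma adjusted p = 0.023). Both genes were without overlap between the groups. Without any 1 of the LPS libraries, or without replicate 2 of LPS + G-CDs, 0 genes of either list were called, and without replicate 1 of LPS + G-CDs 2 and 4 genes were lower, where the calls over all tested genes also rose, from 29 higher and 28 lower to 106 higher and 150 lower. In all the other lists 0 genes were called, and the list medians lay between -0.34 and 0.08. Tnf was at 2448, 2669 and 2748 FPKM with LPS + G-CDs, with a log2 fold change of 0.06 (SE 0.24, limma adjusted p = 0.89) against LPS. The medians of the target lists were -0.29 and -0.34, beside -0.43 for the 7 regulators.

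In LPS + G-CDs against control, the targets that entered the test only through the treated groups were left out. Of the others, 7 of 7 Zfp36 family targets and 9 of 9 Regnase-1 and Roquin targets were higher. Among all tested genes 12.8% were higher and 12.4% lower. These counts share Tnf, Ptgs2, Nfkbiz and Ier3 and include the regulators Zfp36 and Zc3h12a, so they are not counts of separate genes. The other lists were read against the same shares. Without Arid5a, which also entered only through the treated groups, 2 of 16 RNA-binding regulators were higher and 1 was lower. Of 19 deadenylation genes 3 were higher, and of 16 enzymes and adaptors 5 were higher and 2 lower. Of 17 decapping genes 1 was lower (Eif4enif1, -0.45, limma adjusted p = 0.028), as was 1 of 17 exosome and Upf1 genes (Upf1, -0.66, adjusted p = 0.0089). Rc3h2 did not pass, at 0.52. Among the RNA-binding regulators the largest called changes, as fitted log2 fold changes, were those of Igf2bp2 (2.63), Arid5a (1.21) and Cpeb4 (0.87). Among the deadenylation genes they were Btg2 (1.04), Btg1 (0.62) and Cnot7 (0.45), and among the enzymes Malt1 (1.75), Mapkapk2 (1.13) and Mapk14 (-0.94). Among the Zfp36 family targets they were Csf3 (9.88), Cxcl2 (9.70) and Il1b (8.42). Among the Regnase-1 and Roquin targets they were Ptgs2 (8.15), Tnf (5.65) and Nfkbiz (4.42). Csf3, Cxcl2, Il1b and Arid5a were under 1 FPKM in every control library. They entered the test only through the treated groups, so that they had to be higher there.

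For each regulator, the genes with the most similar pattern over the 9 libraries were found by Pearson's r on the log2(FPKM + 1) scale. This is a description, and the 3 groups make up most of the variation of every regulator except Zfp36l1. Stap1, C3ar1 and AC133103.1 were nearest to Zfp36, with r between 0.9984 and 0.9992, and Stap1 was at 8.91 to 11.1 FPKM in control cells, 76.6 to 84.1 with LPS and 64.6 to 68.6 with LPS + G-CDs. Pdgfb, Nfkb2 and Odc1 were nearest to Zc3h12a (0.9976 to 0.9983). Foxm1 and Mms19 were near to Zfp36l2 (0.9933 and 0.9906), Rsbn1, Lamc1 and Spty2d1 nearest to Zc3h12c (0.9944 to 0.9949), Uhrf1bp1l, Ascc3 and Usp25 to Rc3h1 (0.9939 to 0.995), and Ppp2r2a, Tmem185b and Ube2d3 to Elavl1 (0.9875 to 0.9919). Zfp36l1, which has the fewest reads, had the least similar neighbours, Bicra and Gm47666 among them (0.9713 and 0.9697).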

How the data were processed

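The 9 RNA-seq libraries came from RAW264.7 cells. The authors purified mRNA with poly-T beads, primed it with random hexamers and deposited 1 table of FPKM, with a row per gene and a column per library. The labels name GRCm38 (mm10), and the aligner, the counting and its use of strand are not given in the sources used here. FPKM multiplied by gene length came out as whole reads, to within 0.05 reads, for 100.0% of values. The library size the authors divided by was 13806124 to 18756646 against 14752400 to 17312255 reads on genes, so the deposited FPKM already hold a scaling between libraries. All 9 columns of values were mapped to samples, and 0 were left over. The floors on reads cover counting error only, and the 95% intervals, from limma, cover the spread between libraries.

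A gene was tested if 3 or more libraries had 1 FPKM or more (11585 genes). The fit was made on log2(FPKM + 1), a scale that understates changes of low genes, with limma 3.58.1 in R 4.3.3 (lmFit, eBayes with trend, 1 model of 9 libraries, two-sided, Benjamini-Hochberg over all tested genes). Tables were handled in Python 3.11.15 (pandas 2.3.3), and the scripts were tested on simulated data. All 7 genes were named in each comparison, and from each list the 3 largest changes at an adjusted p under 0.05, plus for each regulator the 3 tested genes with the highest r. Of the latter, 2 are not reported here. Others named were chosen after their values were seen. The members, the lists and the rules were chosen with earlier results of these data known. All 155 listed symbols were found.

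Same-numbered control and LPS libraries deviated from their group means with r of 0.103, 0.137 and 0.113, and differently numbered ones with -0.127 to -0.014. Values this small cannot show whether the numbers pair libraries, and no label says what a number stands for. The main fit had no replicate block. The alternatives were a pseudocount of 0.1, no filter, a filter at 5 FPKM, TPM, median-of-ratios scaling, fits of only the 6 libraries compared, eBayes with no trend, voom on recovered reads, removal of a gene-length trend within groups, leaving out each library and a replicate block. Removal of the length trend over all libraries was added after seeing the data. The 3′ UTRs came from the GENCODE annotation (1 transcript per gene), and promoters from RefSeq.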

Additional observations from a re-analysis of the deposited data

How the results depend on the processing

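The number of regulators past an adjusted p under 0.05 stayed at 6 in LPS against control with the replicate block, with voom and when each library was left out in turn. It was 5 after the gene-length trend was removed over all libraries and 4 with TPM. In LPS + G-CDs against LPS it was 0 under every alternative run. In LPS + G-CDs against control it was 5, but 3 without a filter, with TPM and with the 6 libraries alone, and 3 to 5 when each library was left out in turn, with 3 without replicate 2 of LPS + G-CDs. The replicate block made it 6 by adding Rc3h1 (0.78, adjusted p = 0.026), and it changed no other call among the 7. Same-numbered libraries of LPS + G-CDs and LPS correlated at 0.095, 0.080 and 0.143, and those of LPS + G-CDs and control at 0.280, 0.057 and 0.653. Differently numbered libraries of LPS + G-CDs and control ran from -0.671 to 0.504. These values do not decide whether the numbers pair libraries.

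The sign turned only for values that had not passed the test in that comparison. Zfp36l1 turned to -0.075 with TPM and -0.013 without control replicate 1 in LPS against control, where leaving out each library gave -0.013 to 0.406. In LPS + G-CDs against control leaving out each library gave -0.469 to 0.01, the latter without control replicate 2. Elavl1 turned to 0.162 in LPS + G-CDs against LPS without the length trend over all libraries. TPM moved the median of all tested genes to -0.21, -0.12 and -0.33 in LPS against control, LPS + G-CDs against LPS and LPS + G-CDs against control. The causes were not tested. Zfp36l1 was not tested at a filter of 5 FPKM, and its 61 to 253 reads per library limit its precision. The fits after removal of a length trend do not count the degrees of freedom it used.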
